A study of Rattus norvegicus with 7 samples.

Results

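Adult neurogenesis and proliferation genes were examined in hippocampus and hypothalamus of rats on a diet with DHA (docosahexaenoic acid), an omega-3 fatty acid of brain membranes. The members were 10 genes chosen by symbol: Sox2, Nes, Eomes, Neurod1, Sox4, Sox11, Dcx, Igfbpl1, Mki67 and Top2a. Of these, 9 were found among the 15805 symbols listed in both deposited tables, and Eomes was not analysed here. Male Sprague Dawley rats, 2 months old at the start, received the DHA diet for 6 weeks. Poly-A RNA was sequenced from 4 libraries of DHA hippocampus and 3 libraries of DHA hypothalamus. All 7 libraries carry the same diet. The chow-fed controls were not analysed here, and no effect of DHA can be given. The labels do not say whether the 2 tissues came from the same animals, and no transgene or other agent is named. The labels name tissues and no sort of cells, so fewer cells of a type and less RNA per cell cannot be told apart in any value below.

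New neurons arise in the adult rodent brain mainly in the subgranular zone of the dentate gyrus and in the subventricular zone. Radial glia-like stem cells carrying Sox2 and the intermediate filament nestin give rise to dividing progenitors, which pass through an Eomes-positive stage and then a Neurod1-positive stage. Neuroblasts follow, marked by the microtubule protein doublecortin and the transcription factors Sox4 and Sox11. In the hypothalamus, tanycytes that line the third ventricle also carry nestin and vimentin and are held to have progenitor properties. Ki-67 (Mki67) and topoisomerase II alpha (Top2a) are made in dividing cells of any type, so oligodendrocyte precursors and vascular or immune cells can contribute to them. Many cell cycle promoters carry CCAAT boxes, the site of the factor NF-Y, and GGGCGG is the GC box bound by Sp1-type factors.

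Promoter sequences are shown for 3 members that represent different outcomes: Neurod1, which differed most between the tissues, Sox11, which separated the tissues by a smaller amount, and Top2a, which was low in both. Each line gives the 250 bases before the annotated start, from RefSeq on the rat assembly GRCr8, written 5′ to 3′ on the gene's strand. Capitals mark CCAAT and GGGCGG, each searched on both strands, and these letters do not overlap each other.
Neurod1, chr3:84770455-84770704, - strand: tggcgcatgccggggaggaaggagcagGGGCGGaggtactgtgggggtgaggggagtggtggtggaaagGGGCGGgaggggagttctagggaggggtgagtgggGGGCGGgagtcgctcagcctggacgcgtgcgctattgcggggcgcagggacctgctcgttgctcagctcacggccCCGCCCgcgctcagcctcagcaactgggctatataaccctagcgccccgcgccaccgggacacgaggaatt
Sox11, chr6:49738795-49739044, - strand: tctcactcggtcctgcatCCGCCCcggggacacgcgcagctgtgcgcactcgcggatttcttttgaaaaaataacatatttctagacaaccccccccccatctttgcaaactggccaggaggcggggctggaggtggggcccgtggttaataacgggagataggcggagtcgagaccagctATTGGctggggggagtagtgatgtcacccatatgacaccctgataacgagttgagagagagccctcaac
Top2a, chr10:84473094-84473343, - strand: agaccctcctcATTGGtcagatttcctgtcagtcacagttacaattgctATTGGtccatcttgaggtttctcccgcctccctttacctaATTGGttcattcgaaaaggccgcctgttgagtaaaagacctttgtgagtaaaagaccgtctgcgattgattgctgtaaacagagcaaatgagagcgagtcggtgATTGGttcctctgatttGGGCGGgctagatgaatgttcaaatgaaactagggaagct
The Top2a window held 4 CCAAT boxes, all on the opposite strand, and 1 GC box. At least 4 CCAAT boxes were present in 0.565% of the 33469 windows of this length. The window of Mki67 also held 4, but it lies inside the annotated gene and is not printed. Neurod1 had no CCAAT box and 4 GC boxes, a number that 3.67% of windows reached. Sox11 had 1 of each, where 34.0% of windows held a CCAAT box and 30.5% a GC box. Among 15 of the G2 and M phase genes listed further on, 12 windows held a CCAAT box, and among 16 S phase genes 11 did. At least 4 such boxes were found in 0 of these 15 windows and in 0 of these 16. These matches are descriptions of letters and not binding sites.

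Levels were taken from the FPKM values that the authors deposited, in which fragment numbers are divided by transcript length and by library size. The FPKM of a library summed to between 370020 and 391349 in hippocampus and to between 443335 and 471484 in hypothalamus, and absolute depth is not known. Each tissue has its own table, so tissue and table cannot be told apart and no test was made between them. Of the 9 members, all had 1 locus in hippocampus, and in hypothalamus 8 had 1 locus and Sox2 had 2. The labelled tissues could be recognised: the cortical and hippocampal factor Neurod2 had a hippocampal mean of 26.7 ± 11.1 FPKM (SD, n = 4) and a hypothalamic mean of 0.404 ± 0.0889 FPKM (SD, n = 3). The tanycyte factor Rax gave 1.70, 5.97 and 6.21 FPKM in the hypothalamus libraries and was listed at 0 in each of the 4 from hippocampus.

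**Figure D1:**
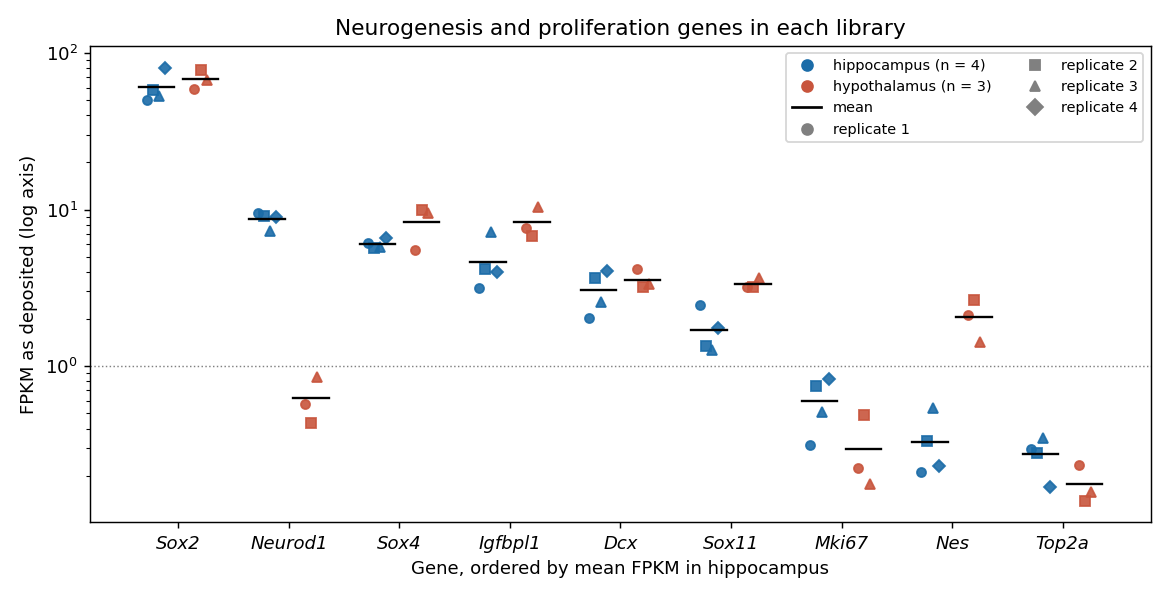
FPKM as deposited (log axis) of 9 genes in each of 4 hippocampus and 3 hypothalamus libraries, with black bars for the mean and a dotted line at 1 FPKM. Neurod1 lies between 7.30 and 9.57 FPKM in hippocampus and below 1 FPKM in hypothalamus, Nes shows the opposite order, the Sox11 points of hypothalamus all lie above those of hippocampus, and the other 6 genes overlap between the tissues.

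In hippocampus the members fell in the order Sox2, Neurod1, Sox4, Igfbpl1, Dcx, Sox11, Mki67, Nes and Top2a by mean FPKM. The libraries of Sox2 did not overlap with those of Neurod1, nor Neurod1 with Sox4, nor Sox11 with Mki67. Sox4 overlapped with Igfbpl1, Igfbpl1 with Dcx, Dcx with Sox11, Mki67 with Nes and Nes with Top2a. In hypothalamus the order was Sox2, Sox4, Igfbpl1, Dcx, Sox11, Nes, Neurod1, Mki67 and Top2a. There Sox4 overlapped with Igfbpl1, Dcx with Sox11, Neurod1 with Mki67 and Mki67 with Top2a, and the other neighbours did not overlap. Neurod1 thus stood second in hippocampus and seventh in hypothalamus, while Sox2 led in both.

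For the comparison of tissues, each library was rescaled to the same sum over the symbols in both tables. A gene was called higher in a tissue when all libraries of that tissue lay above all of the other and the means of log2(rescaled value + 1) differed by at least 1. The comparison took the 10736 symbols whose mean reached 1 FPKM in either tissue, and 7 of the 9 members passed. Mki67 and Top2a did not. Among the 7, 1 member was called higher in hippocampus (Neurod1) and 1 higher in hypothalamus (Nes), where 14.5% and 13.4% of all compared symbols were called. With 1 of 7 on either side, the members' counts lie near this background. The median difference of the 7 was -0.12 on the log2 scale, hippocampus minus hypothalamus, beside 0.05 over all compared symbols. With FPKM as deposited, the same 2 members were called, against 8.64% and 16.9% of all symbols. The hippocampal share of all calls then went from 52.0% to 33.8%, and the median difference of all symbols to -0.21.

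Neurod1, a basic helix-loop-helix transcription factor of neuronal differentiation, read 9.57, 9.14, 7.30 and 8.93 FPKM in hippocampus replicates 1 to 4 and 0.570, 0.437 and 0.859 FPKM in hypothalamus replicates 1 to 3. Every hippocampus library lay far above every hypothalamus library, and the lowest hippocampal value was that of replicate 3. The mean was 8.73 ± 0.994 FPKM (SD, n = 4) against 0.622 ± 0.216 FPKM (SD, n = 3). Mean rescaled values differed 17.4-fold, and the difference of 3.43 on the log2(rescaled value + 1) scale understates this because the hypothalamic value is low. Over 4 scalings of the libraries the difference ran from 2.59 to 3.43. The SD of Neurod1 over the hippocampus libraries was 0.15 in log2(FPKM + 1), beside a median of 0.23 over 10309 symbols, and 4 of the 6 members with a mean of 1 FPKM or more there (Igfbpl1, Dcx, Sox2 and Sox11) lay above that median. Relative to Dcx in the same library, a measure that no scaling can alter, Neurod1 was 2.21 to 4.70 times as high in hippocampus and 0.136 to 0.258 times as high in hypothalamus. Of 8 neuron markers, 2 were called higher in hippocampus, Syt1 and Snap25, and of 5 granule cell markers 2 were, Plk5 and Prox1, beside 14.5% of all compared symbols. The median difference was 0.78 for the neuron markers and 1.10 for the granule cell markers. Among the granule cell markers that were not called, C1ql2 had a difference of 1.10 with overlap, and Calb1 had a difference of -0.74, which was -0.02 with its loci summed. In hippocampus replicate 1, Nefl read 0.174 FPKM and Stxbp6 was listed at 0, and both symbols have 2 loci in the hippocampus table. Their differences of -1.31 and -0.44 turned to 0.89 and 1.08 without that library, and to 1.41 and 1.32 with loci summed. Without hippocampus replicate 1 the counts of called markers were again 2 and 2, beside 15.8% of all symbols. C1ql2, Calb1, Nefl and Stxbp6 are named after their values were seen. The part of mature neurons in the Neurod1 value was not tested.

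Nes encodes nestin, an intermediate filament of neural stem cells that is also made by tanycytes and by some vascular cells. It read 0.210, 0.334, 0.538 and 0.230 FPKM in hippocampus replicates 1 to 4 and 2.14, 2.65 and 1.42 FPKM in hypothalamus replicates 1 to 3. The groups did not overlap, with replicate 3 the highest in hippocampus and the lowest in hypothalamus. Mean values were 0.328 ± 0.150 FPKM (SD, n = 4) and 2.07 ± 0.616 FPKM (SD, n = 3). Mean rescaled values were 5.16-fold higher in hypothalamus, a difference of -1.58 on the log2 scale, which ran from -1.58 to -1.07 over the 4 scalings. With a pseudocount of 5 in place of 1 the difference was -0.72, and Nes was then no longer called.

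Vim encodes vimentin, the filament protein that pairs with nestin, and its extremes fell in the same libraries as those of Nes. It read 26.6, 31.2, 127 and 37.3 FPKM in hippocampus and 325, 410 and 183 FPKM in hypothalamus. As with Nes, the highest hippocampal library was replicate 3, the lowest was replicate 1 and the hypothalamic order was replicate 2, then 1, then 3. The ratio of Nes to Vim lay between 0.00423 and 0.0107 in hippocampus and between 0.00646 and 0.00779 in hypothalamus, so it overlapped although each gene separated the tissues. The summed FPKM of 9 meninges markers was 102, 48.3, 339 and 119 in hippocampus and 239.9, 544 and 99.7 in hypothalamus. It was highest in hippocampus replicate 3 and had the hypothalamic order of Nes, but its lowest hippocampal library was replicate 2. Much of the gap between hippocampus replicates 1 and 2 came from a single marker, Igf2, at 55.5 and 5.14 FPKM. Hippocampus replicate 3 exceeded hypothalamus replicate 3 in this sum, while its Nes value was the lower of the pair. Of the meninges markers, Col1a2 was listed at 0 in every library and Ogn in all but 2, and 0 of the 7 compared were called in either direction (13.4% of all symbols higher in hypothalamus). Of 11 tanycyte and ependymal markers, 5 were called higher in hypothalamus and 3 in hippocampus. Among them Gpr50 averaged 4.58 ± 1.07 FPKM in hypothalamus (SD, n = 3), and in hippocampus it was above 0 in 1 library, at 0.0408 FPKM. Crym and Foxj1 led those called higher in hippocampus. Crym averaged 260 FPKM in hippocampus, where Rax was listed at 0 in each library, so Crym did not follow this tanycyte factor. Among 9 endothelial and pericyte markers, 0 were called higher in hypothalamus and 2 in hippocampus, Flt1 and Cldn5. By no overlap alone, 2 were higher in hippocampus and 2 in hypothalamus, beside 28.2% and 24.4% of all symbols. The latter were Rgs5 and Kcnj8, at differences of -0.56 and -0.80. The mean log2(FPKM + 1) of this list was 3.52, 3.56 and 3.21 in hypothalamus, the order of Nes, and overlapped with 3.23 to 3.61 in hippocampus. The part of these cell types in the Nes value was not tested.

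**Figure D2:**
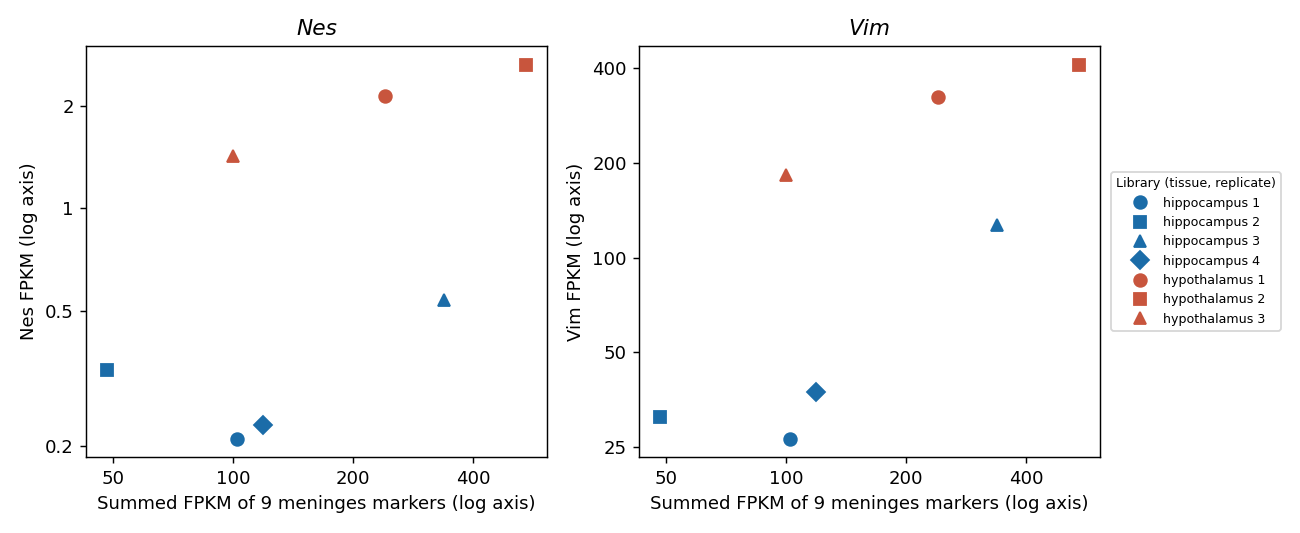
FPKM of Nes (left) and Vim (right) against the summed FPKM of 9 meninges markers, log axes, 1 point per library, with colour for the tissue and shape for the replicate. Hippocampus replicate 3 has a marker sum of 339 and a Nes value of 0.538 FPKM, and hypothalamus replicate 3 has 99.7 and 1.42 FPKM.

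Sox2, the transcription factor of neural stem cells that astrocytes also keep, was the most abundant member. Its values were 49.9, 58.1, 53.2 and 80.6 FPKM in hippocampus and 58.6, 77.6 and 66.9 FPKM in hypothalamus. The ranges overlapped almost entirely, with replicate 4 of hippocampus the highest of all. In every library Sox2 lay above 91.3% to 95.0% of the symbols in both tables. The rescaled difference was 0.12, and it became -0.18 with FPKM as deposited. Sox2 is listed at 2 loci in hypothalamus, and the second locus (XLOC_013802) read 30.8, 32.8 and 38.7 FPKM beside the first (XLOC_013801). With both summed the difference was -0.51, so its direction depends on the scaling and on the choice of locus. In the GRCr8 annotation Sox2 lies within a long non-coding RNA gene, and reads of the pair cannot be told apart where strand was not used, which is not given in the sources used here.

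Sox4 and Sox11 are related SoxC transcription factors that act in differentiating neuroblasts and in other immature cells. Sox4 read 6.10, 5.70, 5.75 and 6.63 FPKM in hippocampus and 5.51, 9.99 and 9.52 FPKM in hypothalamus. Replicate 1 of hypothalamus was the lowest library of all, and the other hypothalamus libraries lay above all of hippocampus. The rescaled difference of -0.12 became -0.36 without hypothalamus replicate 1 and 0.04 without replicate 2. Sox11 read 2.47, 1.35, 1.28 and 1.75 FPKM in hippocampus and 3.19, 3.19 and 3.66 FPKM in hypothalamus. All hypothalamus libraries exceeded all hippocampus libraries, as they did under each of the 4 scalings, and mean rescaled values were 1.59-fold higher in hypothalamus. By rank within the library, however, Sox11 did not separate the tissues. It lay above 44.7% of symbols in hippocampus replicate 1 and above 44.1% and 43.6% in hypothalamus replicates 1 and 2. The difference of -0.61 fell short of 2-fold, so Sox11 was not called. Without the fold criterion it would join Nes, where 24.4% of all symbols lay higher in hypothalamus and 28.2% higher in hippocampus. The ratio of Sox11 to Sox4 was 0.222 to 0.404 in hippocampus and 0.320 to 0.579 in hypothalamus, which overlap.

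Dcx encodes doublecortin, the microtubule-associated protein of migrating neuroblasts. Its FPKM was 2.04, 3.67, 2.55 and 4.05 in hippocampus and 4.20, 3.20 and 3.33 in hypothalamus. The hypothalamic values lay within or just above the hippocampal range, and hippocampus replicate 1 was the lowest library. The rescaled difference was 0.04, against replicate SDs of 0.39 in hippocampus and 0.21 in hypothalamus, and it was -0.19 with FPKM as deposited. The difference in Dcx was thus smaller than the spread between replicates, and its sign depended on the scaling. Hippocampus replicate 1, lowest for Dcx, was highest for Sox11: the ratio of Dcx to Sox11 was 0.826 there and 2.00 to 2.72 in the other hippocampus libraries. In hypothalamus it was 0.910 to 1.32.

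Igfbpl1, an insulin-like growth factor binding protein-like gene found in neuroblasts, read 3.16, 4.20, 7.19 and 4.02 FPKM in hippocampus and 7.68, 6.75 and 10.4 FPKM in hypothalamus. Only hippocampus replicate 3 reached the hypothalamic range, and without it the groups separated at a difference of -0.77 in place of -0.54. Hippocampus replicate 3 was also highest for Nes and for the meninges markers. In hypothalamus, however, Igfbpl1 was highest in replicate 3, where Nes and the meninges markers were lowest. The part of meninges in the Igfbpl1 value was not tested.

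The division markers were low in both tissues. Mki67 read 0.314, 0.749, 0.512 and 0.828 FPKM in hippocampus and 0.223, 0.487 and 0.178 FPKM in hypothalamus. Top2a read 0.295, 0.280, 0.350 and 0.169 FPKM against 0.235, 0.139 and 0.157 FPKM. Neither reached a mean of 1 FPKM in a tissue, so neither was compared, and the groups overlapped for both. This overlap rested on single libraries. Mki67 did not overlap without hippocampus replicate 1 or without hypothalamus replicate 2, and Top2a did not without hippocampus replicate 4 or without hypothalamus replicate 1. The hippocampal means were nominally the higher ones, at 0.601 ± 0.233 and 0.274 ± 0.0758 FPKM (SD, n = 4) against 0.296 ± 0.167 and 0.177 ± 0.0512 FPKM (SD, n = 3). By rank within the library, Mki67 lay above 31.4% to 36.3% of symbols in hippocampus and 26.9% to 30.1% in hypothalamus, and Top2a above 28.9% to 31.2% and 25.6% to 27.9%. These ranks did not overlap, as was the case for Neurod1, also higher in hippocampus, while 25.1% of 13361 symbols above 0 ranked higher in every hippocampus library. Unlike those of Neurod1, the rescaled values of Mki67 and Top2a overlapped. Mki67 at 0.314 FPKM in hippocampus replicate 1 ranked above 0.487 FPKM in hypothalamus replicate 2. Top2a at 0.169 FPKM in hippocampus replicate 4 ranked above 0.235 FPKM in hypothalamus replicate 1. At these low levels, equal ranks therefore do not stand for equal FPKM in the tissues. Nes was the member ranked higher in every hypothalamus library, where 22.9% of symbols were. Mki67 and Top2a did not follow each other across libraries: their ratio ran from 1.07 to 4.89 in hippocampus and from 0.948 to 3.51 in hypothalamus. Mki67 was lowest in hippocampus replicate 1, and Top2a was lowest in replicate 4, where Mki67 was highest. The ratio of Mki67 to Dcx was 0.154 to 0.205 in hippocampus and 0.0531 to 0.152 in hypothalamus, so these ranges narrowly missed each other.

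**Figure D3:**
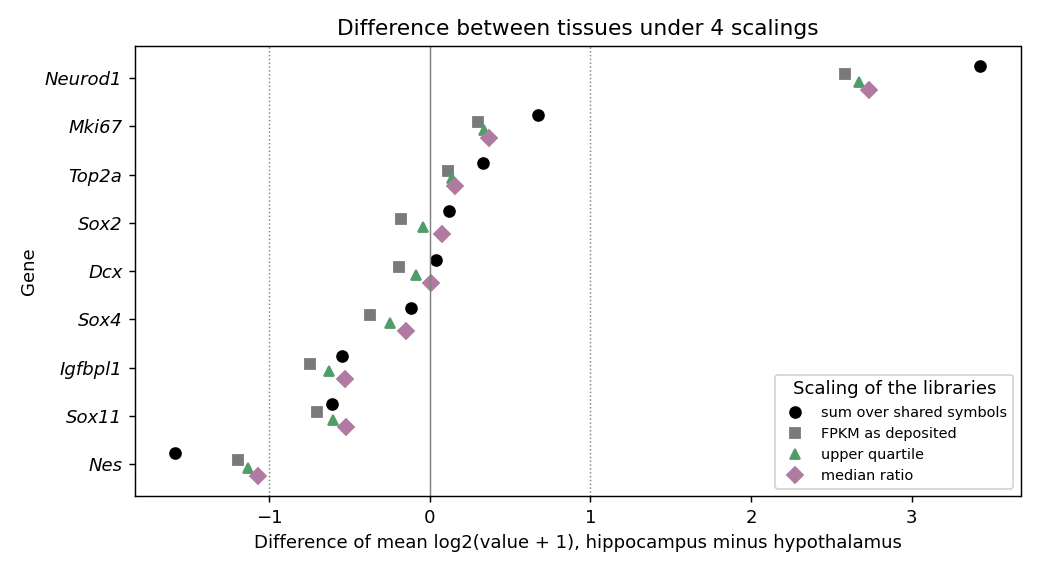
Difference between tissues of each gene, hippocampus minus hypothalamus, in mean log2(value + 1), under 4 ways of scaling the libraries. The dotted lines mark a 2-fold difference, which Neurod1 (2.59 to 3.43) and Nes (-1.58 to -1.07) pass under each scaling, while Sox2 and Dcx lie on either side of 0.

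Other genes of neurogenesis and of the cell cycle were taken from 5 lists holding 88 genes, of which 78 were found and 58 compared. Of the 58, 13 were called higher in hippocampus, 12 higher in hypothalamus and 33 neither, with a median difference of 0.08. Each list is described by its counts, to be read beside the background of 14.5% and 13.4%.

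Of 15 stem and glial progenitor genes, 3 were called for hippocampus and 2, Hes5 and Vim, for hypothalamus, with a median difference of -0.29. Hes5, a Notch target gene, had a mean of 32.1 ± 8.04 FPKM in hypothalamus (SD, n = 3) beside 3.45 ± 0.950 FPKM in hippocampus (SD, n = 4). In GRCr8 it overlaps Pank4, and reads of these genes may not be separable. Towards hippocampus, Thrsp read 33.9 ± 10.5 against 16.0 ± 4.45 FPKM and Rhcg, an ammonium transporter gene, 2.01 ± 0.674 against 0.333 ± 0.139 FPKM.

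Neurogenic commitment and immature neuron genes were called higher in hypothalamus in 6 of 15 cases and in hippocampus in 3, with a median difference of -0.70. The 3 were transcription factors of hippocampal neurons: Neurod2, at a difference of 5.25, Bcl11b, at 30.0 ± 6.11 FPKM in hippocampus (SD, n = 4) against 1.24 ± 0.344 FPKM in hypothalamus (SD, n = 3), and Prox1, the granule cell factor, at 12.6 ± 4.08 against 4.42 ± 0.663 FPKM. Towards hypothalamus, the calcium-binding protein gene Calb2 read 119.9 ± 23.0 against 9.06 ± 0.747 FPKM, and Tubb3, a neuronal tubulin, read 407 ± 90.7 against 109 ± 43.0 FPKM. Calb2 and Tubb3 are also expressed by mature neurons. Neurod1 was 0.222 to 0.473 times as high as Neurod2 in hippocampus and 0.890 to 2.10 times as high in hypothalamus, so the fall from hippocampus to hypothalamus was steeper for Neurod2.

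**Figure D4:**
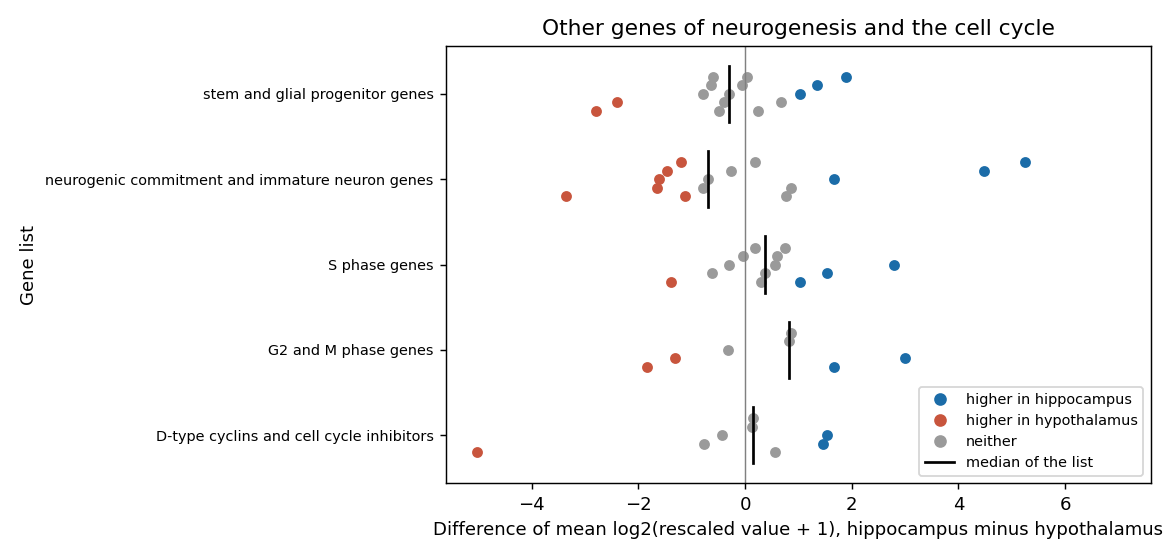
Difference between tissues, hippocampus minus hypothalamus, in mean log2(rescaled value + 1), for the compared genes of 5 lists, coloured by call, with a black bar for the median of each list. Medians run from -0.70 for immature neuron genes to 0.83 for G2 and M phase genes, and each list has genes on both sides of 0.

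Genes of the G2 and M phases were mostly low, and those of S phase were not. Of 18 G2 and M phase genes found, 11 had a mean under 1 FPKM in both tissues (61.1%), beside 5069 of all 15805 symbols, 5 of 18 S phase genes and 1 of 9 D-type cyclin and inhibitor genes. The other 7 G2 and M phase genes were compared, of which 2 were called in each direction. The median FPKM of the 18 was 0.581 in hippocampus and 0.567 in hypothalamus. The called genes pointed in opposite directions: Foxm1, a mitotic transcription factor, read 9.53 ± 1.25 FPKM in hippocampus (SD, n = 4) against 1.11 ± 0.308 FPKM in hypothalamus (SD, n = 3), and Birc5 read 2.00 ± 0.854 against 0.420 ± 0.0984 FPKM. The mitotic kinase gene Aurka was lower in hippocampus, at 1.44 ± 0.227 against 7.41 ± 0.560 FPKM, and Aurkb at 2.92 ± 1.70 against 8.43 ± 2.30 FPKM. Foxm1 overlaps Tex52 in GRCr8 and Aurka overlaps Fam210b, and how reads of overlapping genes were divided is not given in the sources used here.

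Among 18 S phase genes, 13 were compared, of which 3 were called for hippocampus and 1 for hypothalamus, with a median difference of 0.37. Pcna, the replication clamp, averaged 60.5 ± 5.07 FPKM over the 4 hippocampus libraries and 25.9 ± 7.53 FPKM over the 3 hypothalamus libraries. Ccne1 (cyclin E1), listed at 2 loci in hippocampus, had 16.9 ± 1.40 against 2.65 ± 0.295 FPKM. Tk1 (thymidine kinase) had 1.54 ± 0.304 against 5.59 ± 0.898 FPKM. Of 8 D-type cyclin and inhibitor genes compared, 2 were called for hippocampus and 1 for hypothalamus, with a median difference of 0.14. Ccnd2, cyclin D2, read 30.0 ± 6.42 FPKM in hippocampus against 12.2 ± 1.79 FPKM, and Cdkn2c, an inhibitor of its kinases, 1.18 ± 0.361 against 0.255 ± 0.176 FPKM. Cdkn1c, the inhibitor p57, read 14.3, 2.99, 28.9 and 9.65 FPKM in hippocampus and 569, 674 and 221 FPKM in hypothalamus, a difference of -5.03. Its order over the hypothalamus libraries was that of Nes, Vim and the summed meninges markers. In hippocampus it was highest in replicate 3 and lowest in replicate 2, as was the meninges sum, whereas Nes and Vim were lowest in replicate 1. The meninges sum differed from Cdkn1c in its middle libraries, at 102 in hippocampus replicate 1 and 119 in replicate 4. The summed choroid plexus markers, given further on, had the full order of Cdkn1c within each tissue. In hypothalamus, where Cdkn1c was higher, that sum was 57.4, 74.3 and 36.2. The part of meninges or choroid plexus in the Cdkn1c value was not tested. The hypothalamus table lists Cdkn1c at 2 loci.

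Markers of other cells that divide or carry these genes were counted in the same way. Oligodendrocyte precursor markers were called higher in hypothalamus in 2 of 8 cases (C1ql1 and Enpp6) and in hippocampus in 1 (Neu4). Of 8 subventricular zone and olfactory neuroblast markers, 3 were called higher in hypothalamus, among them Dlx2 and Dlx5, and Etv1 was called higher in hippocampus. Dlx genes are also active in mature inhibitory neurons. Of 5 Cajal-Retzius markers, Reln was called higher in hippocampus, and Lhx1 and Lhx5 in hypothalamus. Tp73 and Cxcr4 were not called, at differences of 0.10 and 0.48, so the list pointed in no single direction. Astrocyte markers were called higher in hypothalamus in 4 of 7 cases, with Agt at 955 ± 72.0 FPKM (SD, n = 3) against 57.9 ± 10.7 FPKM (SD, n = 4), and Slc1a2 was called higher in hippocampus. Agt overlaps Cog2 and Capn9 in GRCr8. Sox2, which astrocytes also express, was not called. Microglia markers had 1 of 8 called, C1qb in hypothalamus. Of 8 natural killer and T cell markers, 7 were under 1 FPKM in both tissues and Cd3e was called higher in hippocampus. Choroid plexus markers varied widely between hippocampus libraries. The summed FPKM of the 8 found was 4770, 35.4, 6003 and 2095 in hippocampus and 57.4, 74.3 and 36.2 in hypothalamus, and the median difference of the 7 compared was 3.004. Ttr made up most of the hippocampal sums, at 4651, 31.9, 5771 and 1967 FPKM, Kcnj13 had a difference of -0.21, and Otx2 was listed at 0 in every library. Because hippocampus replicate 2 was low, 0 were called with all libraries, and without it 7 were called higher in hippocampus, beside 14.8% of all symbols. The part of choroid plexus in the values of the neurogenesis and proliferation genes was not tested.

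Genes with the most similar profiles were sought for Dcx, Sox11 and Sox2 over the 7 libraries. The measure was the distance between log2(rescaled value + 1) profiles, each centred on its mean, among 8468 or 8469 candidate symbols reaching 5 FPKM in a tissue. For Dcx the nearest were Ywhab (distance 0.17), Mmgt1 (0.21) and Pigu (0.23), beside a median distance of 1.38. For Sox11 they were Dnmt3a (0.30), Hivep1 (0.38) and Tril (0.39), beside a median of 1.53, and for Sox2 they were Phf8 (0.15), Zcchc24 (0.16) and Cldnd1 (0.23), beside a median of 1.31. These are descriptions of 7 libraries in 2 tissues.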

How the data were processed

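The authors deposited FPKM values in a separate table for each tissue, with a status word beside each value. The submitters' processing notes name the build rn5 and the tools TopHat, TopHat2, Bowtie, Bowtie2, Cufflinks and Cuffdiff, without versions or roles. The annotation, the strand setting and the normalization between libraries are not given in the sources used here. Loci not marked OK in every library were dropped (86 in hippocampus, 24 in hypothalamus). A symbol with several loci was represented by its most abundant locus, and tables were joined by symbol. Symbols of the lists were looked up directly and then through RefSeq synonyms. FPKM carries no counts, so absolute depth is unknown and no counting interval was computed. Differences were described with a pseudocount of 1 and no test, because the tables may have been normalized separately. The call rule was tried on simulated libraries, which left out genes as low as Nes, Mki67 and Top2a. That trial therefore says nothing about the call of Nes. Analysis used Python 3.11.15, numpy 2.4.6 and pandas 2.3.3.

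The members and lists were chosen with earlier results of these data known. All members were named. From each list the 2 genes with the largest difference in each direction among called genes were eligible to be named, or the 2 most abundant where none was called. For Dcx, Sox11 and Sox2 the 3 nearest profiles were named. The ratios between members and the naming of Col1a2, Ogn, Otx2, Tp73, Cxcr4, Rgs5 and Kcnj8 were chosen after their values were seen. Alternatives were other scalings of the libraries, a pseudocount of 0.1 or 5, no filter or a stricter filter on low values, summed loci, no fold criterion and leaving out libraries. For neuron, granule cell and choroid plexus markers, the left-out libraries and summed loci were chosen after seeing the data. Replicates are separate samples by their labels, which do not say whether each came from its own animal.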

Additional observations from a re-analysis of the deposited data

Results flagged for a closer look

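Of 26 results measured in the 4 hippocampus libraries, 9 members and 17 list levels, 1 had a library standing apart, with a gap to its neighbour that exceeded Dixon's 95% critical value as a share of the range, where chance gives 1.3. The level of the endothelial and pericyte markers, a mean of log2(FPKM + 1) over 9 genes, was 3.61 in hippocampus replicate 3 and 3.23, 3.23 and 3.29 in replicates 1, 2 and 4, a ratio of 0.844. That library was also highest for Nes, at 0.538 FPKM, and for Igfbpl1, at 7.19 FPKM. The part of vascular cells in those values was not tested.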

How the results depend on the processing

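Neurod1 was called higher in hippocampus under every alternative tried. Nes was called higher in hypothalamus under all but 2: with a pseudocount of 5 and with a minimum mean of 5 FPKM, 0 members were called higher in hypothalamus in place of 1, the second because Nes did not reach that minimum. With no overlap as the sole criterion, 2 members were, Sox11 and Nes. Listed pathway genes called higher in hippocampus numbered 8 with a pseudocount of 5 and 20 with no overlap alone, in place of 13. Symbols called higher in hippocampus numbered 928 with FPKM as deposited and 3023 with no overlap alone, in place of 1560, and those higher in hypothalamus 2621 with no overlap alone, in place of 1439. For the differences between tissues, Sox11, Igfbpl1, Neurod1, Nes, Mki67 and Top2a kept their direction under 14 of 14 alternatives, Sox4 under 13, Sox2 under 10 and Dcx under 8. Dcx ranged from -0.19 with FPKM as deposited to 0.31 without replicate 1 of both tissues. The calls of Neurod1 and Nes never changed sign. Sox2 was -0.51 with loci summed, and Sox4 was 0.04 without hypothalamus replicate 2. No paired analysis was possible because the labels do not tie the replicate numbers of the tissues to the same animals. Low values of Mki67, Top2a and Nes limit their precision, and depth is unknown.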
